A study of Mus musculus with 8 samples.

Results

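The amygdala transcriptome of mice on plain drinking water was described from the 4 plain water libraries of a study whose other 4 libraries, from mice given aspartame, were not used. A gene was kept when its values varied over these 4 libraries and their mean was at least 3 on the deposited log2 scale, which left 12857 of 24982 genes. Of the others, 5775 varied with a mean below 3 and 6350 held a constant value. *Chrm5* (3.001) and *Alyref2* (3.001) lay just inside the minimum, and *5031434O11Rik* (2.999) and *Spsb4* (2.998) just outside. The animals were C57BL/6 mice labelled male, purchased at 8 wk of age and housed in groups, which the study's methods give as pairs. They were given plain water for 18 wk per the labels (the study's methods give a shorter time), and the amygdala was collected by microdissection. Water 1 and water 3 came from mice aged 187 d and water 2 and water 4 from mice aged 189 d, with 1 library per animal. No allele, transgene or drug is named for these mice in the labels. The study's methods place RNA extraction after behavioral testing. Some of its plain water mice received saline and then diazepam, and whether the sequenced mice were among them is not stated. Microdissected tissue holds all cell types of the piece taken, so that fewer cells of a type and less RNA per cell cannot be told apart in any of the values.

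The amygdala is a group of nuclei in the temporal lobe that attaches fear, reward and social meaning to sensory input. Its basolateral nuclei resemble cortex and hold mainly glutamatergic projection neurons with local GABAergic interneurons, whereas the central and medial nuclei resemble striatum and hypothalamus and hold mainly GABAergic and peptide-releasing neurons. The balance between glutamate and GABA signaling in these circuits, and its tuning by neuropeptides, monoamines and stress hormones, is what makes receptor and channel expression in this tissue of interest.

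The values are taken as regularized log2 values (rlog) from the name of the deposited table, that is, log2 counts scaled for library size in which weakly counted genes are drawn toward their mean. Differences of low genes are therefore understated, and a low value does not show that reads were present. Counts were not at hand and the depth per library is unknown, so that the spread over 4 libraries is the only error given. A longer transcript yields more fragments at the same abundance. Members of gene families were therefore compared after subtracting the log2 of the length in kb of 1 representative transcript. The result is called the length-scaled level. Ranks, shares and list leaders given by rlog carry no length scaling, so long transcripts stand higher in them. A difference of 1 in either quantity is a 2-fold difference. The 4 libraries correlated with each other at 0.993 to 0.997 across genes, and their median rlog lay between 6.69 and 6.72. Of the kept genes, 12449 were protein coding and 355 of another type in GENCODE M21 on GRCm38 (the same assembly as mm10).

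The libraries stood apart in 3 respects that bear on what follows. *Xist* was high and 4 Y-linked genes were low in water 1 and water 3, the reverse of water 2 and water 4, so that the former go against the label male. Genes of the choroid plexus, the tissue that secretes cerebrospinal fluid, were high in water 1. Markers of striatal neurons and immediate early genes were high in water 2, and markers of the medial amygdala and hippocampus were low there. Each is described with its values further on. The leading members and the most abundant genes reported next were also computed without water 1 and water 3, and 75 of 77 family leaders and 19 of the top 20 genes were kept.

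The genes of the highest mean rlog, without length scaling, included genes of neurons and of astrocytes. *Meg3*, an imprinted long noncoding RNA on chromosome 12 from 109541001 to 109571726, had the highest mean rlog, at 14.86 ± 0.079 (SD, n = 4). Next came *Slc1a2*, the main astrocytic glutamate transporter, at 13.84 ± 0.23, and *Snhg11*, a host gene of small nucleolar RNAs, at 13.57 ± 0.12. *Kif5a*, a kinesin motor of axonal transport, followed at 13.32 ± 0.093. *Map2*, a dendritic microtubule protein, stood at 13.17 ± 0.12. *Camk2a*, a kinase of synaptic plasticity, stood at 13.16 ± 0.11. Together the first 20 genes by rlog comprised 18 annotated as protein coding in GENCODE M21. Among these were the vesicle fusion proteins *Snap25* and *Syt1*, the chaperones *Hsp90ab1* and *Hspa8* and the glutamine synthetase *Glul*. *Snhg11* was counted as coding there too, whereas *Meg3* and *2900097C17Rik* (12.27 ± 0.094) are annotated as long noncoding RNAs.

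After length scaling, synaptic and housekeeping genes with short transcripts led. *Calm2*, a second calmodulin gene on chromosome 17 from 87433412 to 87446935, had the highest length-scaled level, at 11.90 ± 0.067 (SD, n = 4). *Snap25* followed at 11.83 ± 0.15 and *Sparcl1*, a matricellular protein of astrocytes, stood at 11.66 ± 0.073. The translation factor *Eef1a1* reached 11.49 ± 0.015, the peptide-processing enzyme *Cpe* 11.36 ± 0.055, and the sodium pump subunit *Atp1b1* 10.70 ± 0.024. *Eif4g2*, *Mbp* and *Oxr1* also entered the first 20, but on representative transcripts of 742, 638 and 798 bases. With the union of all exons they ranked 413, 454 and 627, so their place depends on the transcript taken. *Atp1b1*, *Cpe*, *Eef1a1*, *Glul*, *Hsp90ab1*, *Hspa8*, *Meg3* and *Snhg11* were among the first 20 under all 4 definitions of length.

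The summed values were spread over many genes, in a table that holds no mitochondrially encoded gene and lists the hemoglobin genes at 0. On the back-transformed scale, *Meg3* held 0.929 ± 0.041% (SD, n = 4) of the summed values of all kept genes. The first 20 genes held 5.22 ± 0.21% and the first 1000 held 45.3 ± 0.58%. It took 1239 genes to reach 50% of the sum. There were 37 genes with a mean of at least 12, 502 between 10 and 12, and 2784 between 8 and 10.

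The gene families were taken from 84 lists with 592 members, of which 397 were kept and 195 were not. At least 2 members were kept in 77 families, 1 member in 6, and none in the family of bombesin receptors. In 69 of the 77 families the leading member was above the second in each of the 4 libraries. The median margin between them was 0.85, with a median SD over libraries of 0.14, and 32 margins exceeded 1. With 4 libraries a sign-flip test of a margin allows no two-sided exact p under 0.125, so the margins are given as descriptions. The leader was the same under all 4 definitions of transcript length in 50 of the 77 families. Of 314 neighbouring pairs in these orders, 61 were not in the same order in every library.

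Glutamate receptors were led by AMPA subunits, which carry fast excitatory current. The length-scaled level of *Gria1*, on chromosome 11 from 57011387 to 57330244, was 8.91, 8.54, 8.97 and 8.97 in water 1 to 4. That of *Gria2*, the subunit that limits calcium entry, was 8.39, 8.55, 8.65 and 8.57. The pair was level in water 2, where *Gria1* was lowest, and *Gria1* was above in the other 3 libraries, with a mean margin of 0.31 ± 0.22. Median transcript lengths placed *Gria2* first. *Gria3* (7.98) and *Gria4* (6.59) followed in every library.

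Among NMDA subunits, the obligatory *Grin1* led at 7.76 ± 0.10, above *Grin2b* at 6.71 ± 0.15, but this order was reversed with the union of exons and with median lengths. *Grin3a* (5.48) and *Grin2a* (5.38) were not ordered in every library, and *Grin2c* stood at 4.48 and *Grin2d* at 1.58 ± 0.14. *Grin3b*, with a mean rlog of -1.23, was not kept. The kainate receptors were led by *Grik5* (6.45 ± 0.11), which forms channels only with another subunit, above *Grik2* (5.82 ± 0.08). The metabotropic receptors were led by *Grm5* (7.12 ± 0.13), which couples to calcium release, above *Grm7* (6.27 ± 0.09), a presynaptic receptor. *Grm2* and *Grm4* were the lowest kept members, at 2.63 and 2.48, and *Grm6* held a constant value of 0. The leaders of the kainate and metabotropic families were the same under every length definition and in every library.

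GABA-A receptors are pentamers that usually join alpha and beta subunits with a gamma subunit. Of the alpha subunits, *Gabra3* stood at 8.05 ± 0.06, *Gabra2* at 7.72, *Gabra5* at 6.88 and *Gabra4* at 6.66, and the last pair was not ordered in every library. *Gabra6*, with a mean rlog of 2.50, was not kept. Of the other subunits, *Gabrb2* stood at 8.53 ± 0.13, far above *Gabrb1* at 2.91, and *Gabrg1* at 5.51 ± 0.05. *Gabbr1* (8.69 ± 0.04) was above *Gabbr2* (7.86 ± 0.09), its partner in the metabotropic GABA-B receptor. Among glycine receptor subunits, *Glrb* (7.81 ± 0.06), which binds the scaffold gephyrin, was above *Glra2* (4.78 ± 0.18) by 3.03 ± 0.24.

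**Figure D1:**
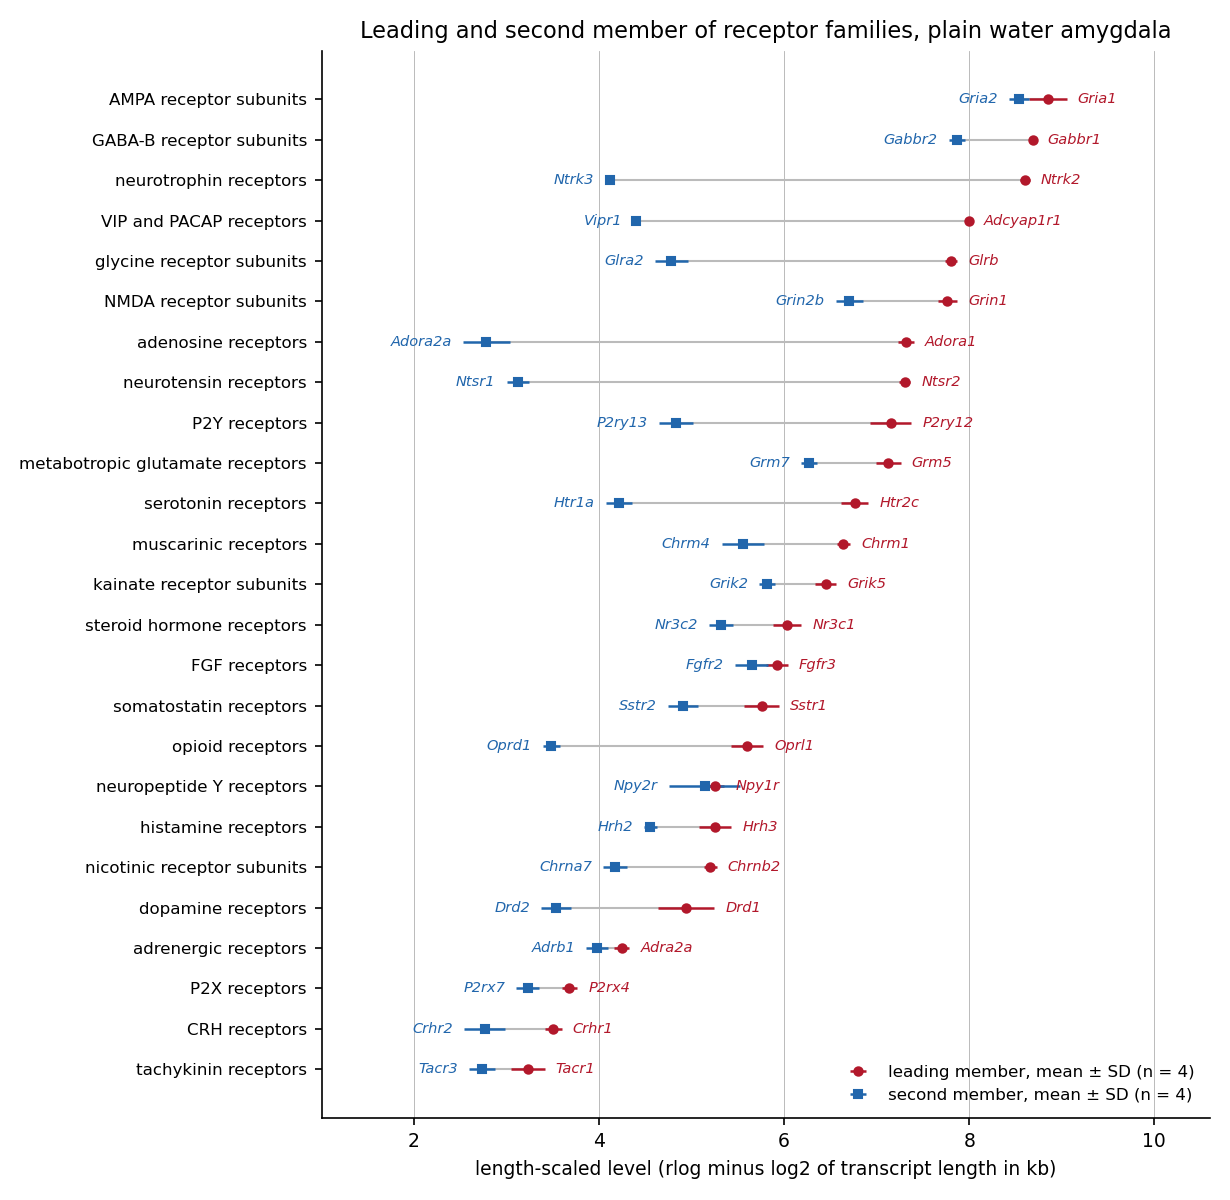
Length-scaled level (rlog minus log2 of transcript length in kb, horizontal axis) of the leading member (circles) and the second member (squares) of 25 receptor families with at least 2 members kept, as mean ± SD over 4 plain water libraries. *Gria1* is the highest leader at 8.85, *Adora1*, *Ntsr2* and *Ntrk2* stand far above their second members, and *Npy1r* and *Npy2r* overlap.

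Of the receptors for monoamines and acetylcholine, those for serotonin had the widest lead and those for noradrenaline the narrowest. *Htr2c*, the serotonin receptor subject to RNA editing, had length-scaled levels of 6.91, 6.82, 6.74 and 6.57 in water 1 to 4 and was 5.85-fold above *Htr1a* (4.21 ± 0.14). *Htr1a*, *Htr7*, *Htr5a* and *Htr3a* lay between 4.02 and 4.21 and neighbours among them were not ordered in every library. *Drd1* had levels of 4.84, 5.39, 4.80 and 4.74, and *Drd2* of 3.59, 3.72, 3.47 and 3.35. Both dopamine receptors, markers of the direct and indirect striatal pathways, were highest in water 2, and *Drd1* was above *Drd2* in each library by 1.41 ± 0.18. *Drd3*, *Drd4* and *Drd5* were not kept. *Adra2a* (4.25 ± 0.08), the inhibitory receptor for noradrenaline, was above *Adrb1* (3.98 ± 0.12) in all 4 libraries, by 0.27 ± 0.15, and below it with median lengths. *Hrh3* (5.26 ± 0.17), the presynaptic histamine receptor, led *Hrh2* (4.55 ± 0.07). *Chrm1* (6.64 ± 0.07) led *Chrm4* (5.55 ± 0.23) among muscarinic receptors. *Chrnb2* (5.20 ± 0.07) led *Chrna7* (4.17 ± 0.13) among nicotinic subunits, of which only 3 of 16 were kept, and with median lengths *Chrna4* led instead.

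Purine and cannabinoid receptors were also uneven. The adenosine receptor *Adora1* (7.32 ± 0.09), which lowers transmitter release, was 23.2-fold above *Adora2a* (2.78 ± 0.25), a striatal receptor. *P2ry12* (7.15 ± 0.22), a receptor of microglia, was above *P2ry13* (4.83 ± 0.19) by 2.32 ± 0.05. *P2rx4* (3.68) and *P2rx7* (3.23) were low and changed places with the longest transcript and with the union of exons. *Cnr1*, the cannabinoid receptor of nerve terminals, stood at 7.14 ± 0.14, and *Cnr2*, with a mean rlog of -0.37, was not kept.

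Of 52 neuropeptide precursors, 19 were kept. *Penk*, which encodes the enkephalins, led on chromosome 4 from 4133531 to 4138819, with length-scaled levels of 9.22, 9.14, 9.31 and 8.81 in water 1 to 4. *Sst*, the somatostatin precursor of inhibitory neurons, had levels of 8.63, 8.09, 8.43 and 8.28. *Penk* was above *Sst* in every library, by 0.76 ± 0.25. *Npy* (7.96 ± 0.28), *Cck* (7.65 ± 0.23) and *Vip* (6.58 ± 0.15), all made by GABAergic interneurons in this tissue and *Cck* also by projection neurons, came next. Each of these 5 precursors was above the next in every library, whereas *Trh* and *Tac2*, and neighbours from *Pdyn* down to *Crh*, were not ordered in every library. *Tac1* (5.98), the precursor of substance P, and *Nts* (4.96), of neurotensin, were in the middle of the range. *Crh*, the stress peptide of the central nucleus, was low at 3.48 ± 0.12. *Pomc*, *Gal*, *Oxt*, *Avp* and *Hcrt*, peptides of the hypothalamus, were among the 33 not kept.

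The start region of *Sst* is shown because a cAMP response element (CRE, the palindrome TGACGTCA) lies in it, a motif by which cAMP signaling acts on this gene in rodents. The window runs from 250 bases before to 50 bases after the RefSeq start on GRCm38.p6, at chr16:23890795-23891094 on the minus strand, and the capitals mark the element, whose first base is 48 bases before the start.
Sst: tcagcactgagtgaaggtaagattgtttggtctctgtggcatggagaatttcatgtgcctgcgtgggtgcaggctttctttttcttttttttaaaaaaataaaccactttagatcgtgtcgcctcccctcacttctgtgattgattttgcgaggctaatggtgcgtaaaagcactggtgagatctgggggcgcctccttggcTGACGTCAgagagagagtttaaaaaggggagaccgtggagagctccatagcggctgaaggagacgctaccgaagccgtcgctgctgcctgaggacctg
Of the other leading precursors, *Penk* had no RefSeq window and was not examined. The windows of *Npy*, *Cck* and *Vip* hold no complete CRE. Those of *Cck* and *Vip* each hold its shorter core, TGACG on either strand, at 1 place, as do 30.3% of the windows of kept genes at least once. The complete CRE was found on either strand in 1.79% of all 32851 RefSeq windows of this length and in 3.02% of those of kept genes. A match describes the letters of the window and not binding.

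**Figure D2:**
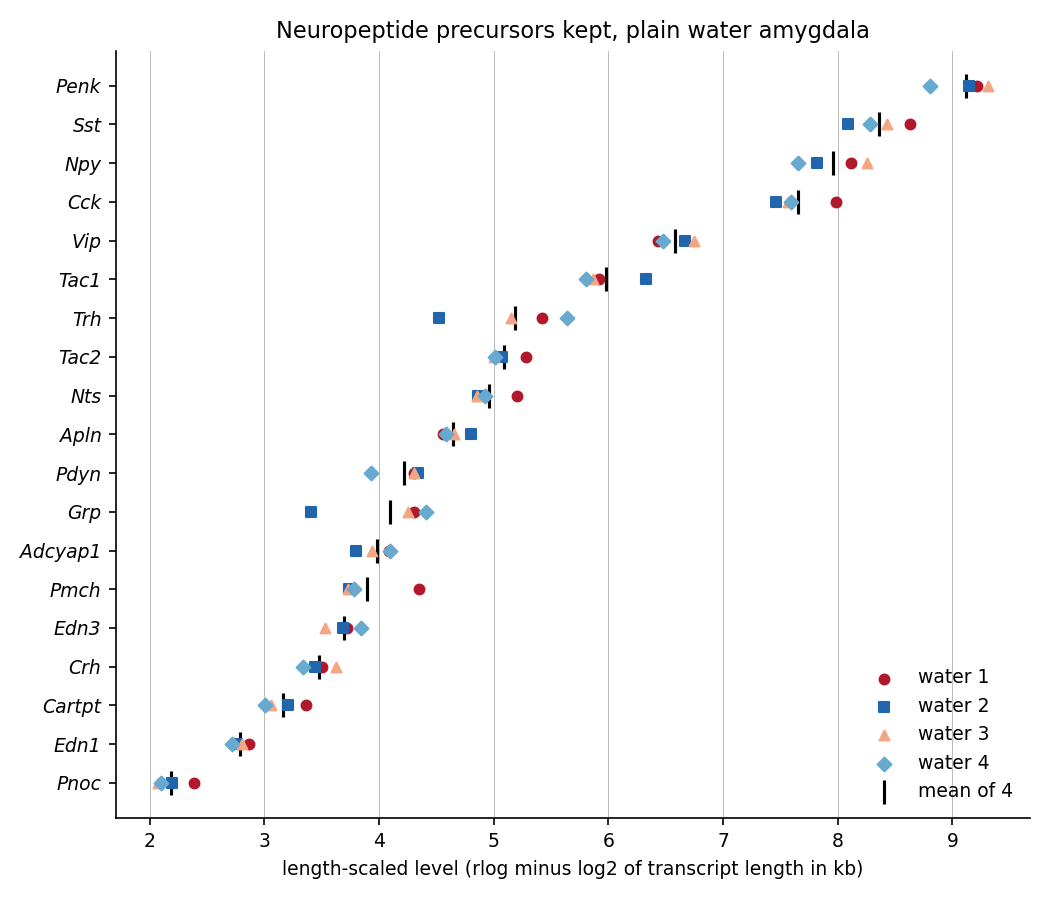
Length-scaled level (horizontal axis) of the 19 neuropeptide precursors kept, in each of the 4 plain water libraries, with the mean as a vertical bar. *Penk*, *Sst*, *Npy* and *Cck* lie above 7, *Trh* and *Grp* are lowest in water 2, and *Pmch* is highest in water 1.

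Of the genes that store and cut these peptides, *Chgb* and *Cpe* had levels above every precursor. The granin *Chgb*, which condenses cargo in dense-core vesicles, stood at 10.22 ± 0.13, above *Scg3* at 9.35 ± 0.18 in each library, although *Scg3* led with median lengths. *Cpe*, which trims the C terminus of peptides, stood at 11.36 ± 0.05, and was 12.6-fold above the convertase *Pcsk2* (7.71 ± 0.02). *Pam* (7.57 ± 0.02), which amidates peptides, was next, and *Pcsk1* (5.77 ± 0.07) was below *Pcsk2*. Of the neurotrophins, *Bdnf* (4.75 ± 0.20) was above *Ntf3* (3.71 ± 0.12), while *Ntf5* was not kept.

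Receptors for neuropeptides were mostly low, with a few exceptions. *Adcyap1r1*, the PACAP receptor, stood at 8.00 ± 0.04 and was 12.1-fold above *Vipr1*. *Ntsr2*, a neurotensin receptor of astrocytes, stood at 7.30 ± 0.06 and was 18.1-fold above *Ntsr1*. *Cckbr*, the brain cholecystokinin receptor, was the only kept member of its pair, at 6.25 ± 0.18. Among opioid receptors, *Oprl1* (5.60 ± 0.17), which binds nociceptin, was above *Oprd1* (3.48 ± 0.09) and *Oprk1* (3.40 ± 0.14) in every library, and *Oprm1*, with a mean rlog of 2.91, fell just below the minimum. *Npy1r* had length-scaled levels of 5.16, 5.20, 5.30 and 5.37, and *Npy2r* of 5.18, 4.59, 5.36 and 5.43. *Npy1r* exceeded *Npy2r* in water 2 alone, so that no leader can be named for the neuropeptide Y receptors. *Sstr1* (5.76 ± 0.19) led the somatostatin receptors over *Sstr2* (4.91 ± 0.16), and *Crhr1* (3.51 ± 0.09) led *Crhr2* (2.77 ± 0.22). *Oxtr*, the oxytocin receptor, stood at 4.58 ± 0.13, and the 3 vasopressin receptors were not kept. *Tacr1* (3.23), *Galr1* (1.59), *Mc4r* (1.91) and *Hcrtr2* (1.90) were at the low end.

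Leads among growth factor and steroid receptors ranged from wide to narrow. *Ntrk2*, the receptor for BDNF, stood at 8.60 ± 0.05, above *Ntrk3* at 4.12 ± 0.05. *Fgfr3* (5.92 ± 0.12) was above *Fgfr2* (5.65 ± 0.18) by only 0.27 ± 0.24. The glucocorticoid receptor *Nr3c1* had length-scaled levels of 5.83, 6.20, 6.04 and 6.05, and the mineralocorticoid receptor *Nr3c2*, the other receptor for corticosterone, of 5.31, 5.15, 5.33 and 5.47. *Nr3c1* was above in all 4 libraries, by 0.72 ± 0.24. The progesterone receptor *Pgr* stood at 4.01 ± 0.12 and the estrogen receptor *Esr1* at 2.63 ± 0.33, and *Esr2* was not kept. The spread of *Esr1* was the largest of these, with its lowest value, 2.17, in water 2.

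Voltage-gated channels set the firing of these neurons. Of the sodium channel alpha subunits, *Scn2a* (7.66 ± 0.08), found in excitatory neurons, was above *Scn8a* (6.95 ± 0.06) and *Scn1a* (6.03 ± 0.07) in every library, while median lengths placed *Scn8a* first. Of the beta subunits, *Scn3b* stood at 7.90 ± 0.07 and *Scn2b* at 7.72 ± 0.07. *Scn4b* had levels of 3.70, 4.95, 3.89 and 3.48 and was the least even, with its high value in water 2. The calcium channels were led by *Cacna1e* (6.74 ± 0.18), of the R type, and *Cacna1c* (6.51 ± 0.10), of the L type, which differed by 0.23 ± 0.08. *Cacna2d1* (7.48 ± 0.15), the target of gabapentin, and *Cacnb3* (7.61 ± 0.16) led the auxiliary subunits.

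Potassium channels had 1 leader far above the rest in some families and near ties in others. *Kcnd3* (8.05 ± 0.11), of the A type, was above *Kcnd2* by 2.14 ± 0.11. In contrast, *Kcnc1* (7.14) and *Kcnc2* (6.99) differed by 0.15 ± 0.10, and the latter led with the longest transcript and with the union of exons. *Kcnk2* (6.74) and *Kcnk1* (6.73) could not be ordered, with *Kcnk2* above in 2 of 4 libraries. *Kcna1* (7.36 ± 0.13) led *Kcna2* (6.59 ± 0.10) by the main length and not with median lengths. *Kcnh1* (5.04 ± 0.14) and *Kcnh3* (4.87 ± 0.25) were ordered in 3 of 4 libraries. *Kcnma1* (6.92 ± 0.16), the large-conductance calcium-activated channel, led *Kcnt1* (6.07 ± 0.19), but not with the longest transcript or the union of exons. *Kcnj10*, the channel by which astrocytes take up potassium, had levels of 7.12, 7.49, 7.64 and 7.38 and was above *Kcnj9* (7.16 ± 0.09) in 3 of 4 libraries. *Hcn2*, a pacemaker channel, stood at 5.20 ± 0.19.

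Among the other channels, connexins and aquaporins had the widest leads. *Gja1* (8.65 ± 0.10), the main astrocytic connexin, was above *Gjb6* (6.72 ± 0.04) by 1.94 ± 0.14. *Aqp4* (7.66 ± 0.20), the water channel of astrocyte endfeet, was 23.9-fold above *Aqp11*, and 9 of 11 aquaporins were not kept. *Itpr1* (7.37 ± 0.18) led *Ryr2* (6.23 ± 0.13) among calcium release channels. *Clcn4* (7.39 ± 0.04) and *Clcn3* (7.25 ± 0.12) led the CLC family, *Ano3* (6.66 ± 0.16) the anoctamins and *Trpc5* (5.50 ± 0.12) the TRPC channels. *Asic1* (5.36) and *Asic2* (5.31) were not ordered in every library.

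Transporters for transmitters were led by those of glutamate. *Slc1a2*, on chromosome 2 from 102658659 to 102790784, had length-scaled levels of 10.01, 10.56, 10.40 and 10.27 in water 1 to 4, and *Slc1a3* of 9.73, 9.97, 9.85 and 9.92. *Slc1a2* was above in all 4, by 0.44 ± 0.15. *Slc17a7*, which fills vesicles with glutamate in cortical-type neurons, stood at 9.54 ± 0.10. It was 15.8-fold above *Slc17a6* (5.56 ± 0.20), its counterpart in thalamus, hypothalamus and medial amygdala. *Slc32a1*, which fills vesicles with GABA, stood at 4.53 ± 0.20, and *Slc17a8* at 1.89 ± 0.13. The vesicular transporters for monoamines and acetylcholine were not kept, with mean rlog of 2.04 for *Slc18a2* and -0.06 for *Slc18a3*. *Slc6a11*, a GABA transporter of astrocytes, stood at 7.18 ± 0.12. Of the monoamine transporters only *Slc29a4* (4.48 ± 0.08) and *Slc22a3* (1.44 ± 0.17) were kept, both of low affinity.

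Pumps and exchangers that restore ion gradients were among the most abundant members. *Atp1b1* (10.70 ± 0.02) led the beta subunits of the sodium pump over *Atp1b2* (9.76 ± 0.07). The largest margin of any family was that of the calcium pump *Atp2a2* (9.06 ± 0.10) over *Atp2a3* (2.81 ± 0.04), at 6.25 or 76.3-fold. *Atp2b1* (8.54 ± 0.12) led the calcium pumps of the plasma membrane, and *Slc8a1* (8.45 ± 0.16) the sodium-calcium exchangers, although *Slc8a2* (7.09 ± 0.08) led with the longest transcript and with the union of exons. *Slc12a5* (7.38 ± 0.11), which lowers neuronal chloride and so sets the sign of GABA responses, was above *Slc12a2* (5.68 ± 0.14).

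Nutrient and metal transporters had clear leaders in some families and near ties in others. *Slc2a3* (7.15 ± 0.04), the neuronal glucose transporter, was above *Slc2a13* (6.14 ± 0.07) and *Slc2a1* (5.82 ± 0.26), the transporter of the blood-brain barrier. *Slc25a4* (9.27 ± 0.06) led *Slc25a5* (7.96 ± 0.08) among the mitochondrial carriers of ADP and ATP. *Abcc5* (7.01 ± 0.08) led the efflux pumps over *Abcb1a* (5.44 ± 0.16). *Slc16a1*, a carrier of lactate, stood at 4.80 ± 0.15. *Slc39a10* (7.67 ± 0.18) led the zinc importers. *Slc30a9* (6.48 ± 0.06) and *Slc30a3* (6.40 ± 0.34), the synaptic vesicle zinc transporter, could not be ordered, since *Slc30a9* was above in 2 of 4 libraries. *Slc38a1* (6.60) and *Slc38a2* (6.57), carriers of glutamine, were likewise close, with the former above in 3 of 4.

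Markers of neurons and of the basolateral and central nuclei were mostly kept, and those of the medial nucleus less so. Lists of the hippocampus and of cortex and claustrum were also mostly kept, as given further on. The number of markers kept therefore does not set this tissue apart from its neighbours. All 6 general neuronal markers were kept, with mean rlog from 8.54 to 12.91, and all 7 glutamatergic and 8 GABAergic markers were kept. *Gad1* and *Gad2*, which make GABA, had mean rlog of 10.004 ± 0.08 and 10.26 ± 0.06. Of the nuclear markers, all 5 of the basolateral list were kept, led by *Mef2c* at 10.78 ± 0.20, with *Rspo2* at 6.40, 5.85, 6.62 and 6.63 in water 1 to 4. Of the central list, 5 of 6 were kept, with *Prkcd* at 5.83 ± 0.13 and *Tac2* at 4.86 ± 0.13. Of the medial list, 3 of 7 were kept (*Esr1*, *Lhx9* and *Sim1*), and *Lhx5*, *Cyp19a1*, *Ucn3* and *Otp* were below the minimum.

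Glial and vascular cells were represented by nearly complete lists. All 10 astrocyte markers were kept, led by *Slc1a2*, with *Aldoc* at 11.08 ± 0.02. All 10 oligodendrocyte markers were kept. All 8 markers of oligodendrocyte precursors, 11 of microglia, 9 of endothelial cells and 8 of pericytes and smooth muscle were kept. *Pdgfra*, a marker of the precursors, stood at 8.82 ± 0.02. The list of oligodendrocyte precursors was the most even of all lists by its list mean, which in each library was at most 0.011 from its mean over the 4. Its members varied more, with *Bcas1* highest (9.13) and *Neu4* lowest (5.24) in water 2. The median SD of its members was 0.072, against 0.067 for the thalamic list.

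Marker lists of other regions and of neurons that project from elsewhere were kept to different extents, and the cells these genes came from were not tested. In the hypothalamic list only *Pmch* was kept, at rlog 3.93, 3.32, 3.31 and 3.37 in water 1 to 4, with its high value in water 1, while *Hcrt*, *Agrp*, *Pomc*, *Oxt*, *Avp* and *Nkx2-1* were below the minimum. Of 9 markers of monoaminergic and cholinergic neurons, *Ddc* (4.91 ± 0.16) and *Slc5a7* (4.16 ± 0.20) were kept, and the defining genes *Th*, *Tph2*, *Dbh* and *Chat* were not. In the thalamic list 4 of 5 were kept, at mean rlog of at most 5.06. In the hippocampal list 6 of 7 were kept, led by *Wfs1* at 8.61 ± 0.19, and all 7 of the list of cortex and claustrum were kept, led by *Nr4a2* at 8.04 ± 0.16. All hemoglobin genes of the blood list were listed at 0.

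**Figure D3:**
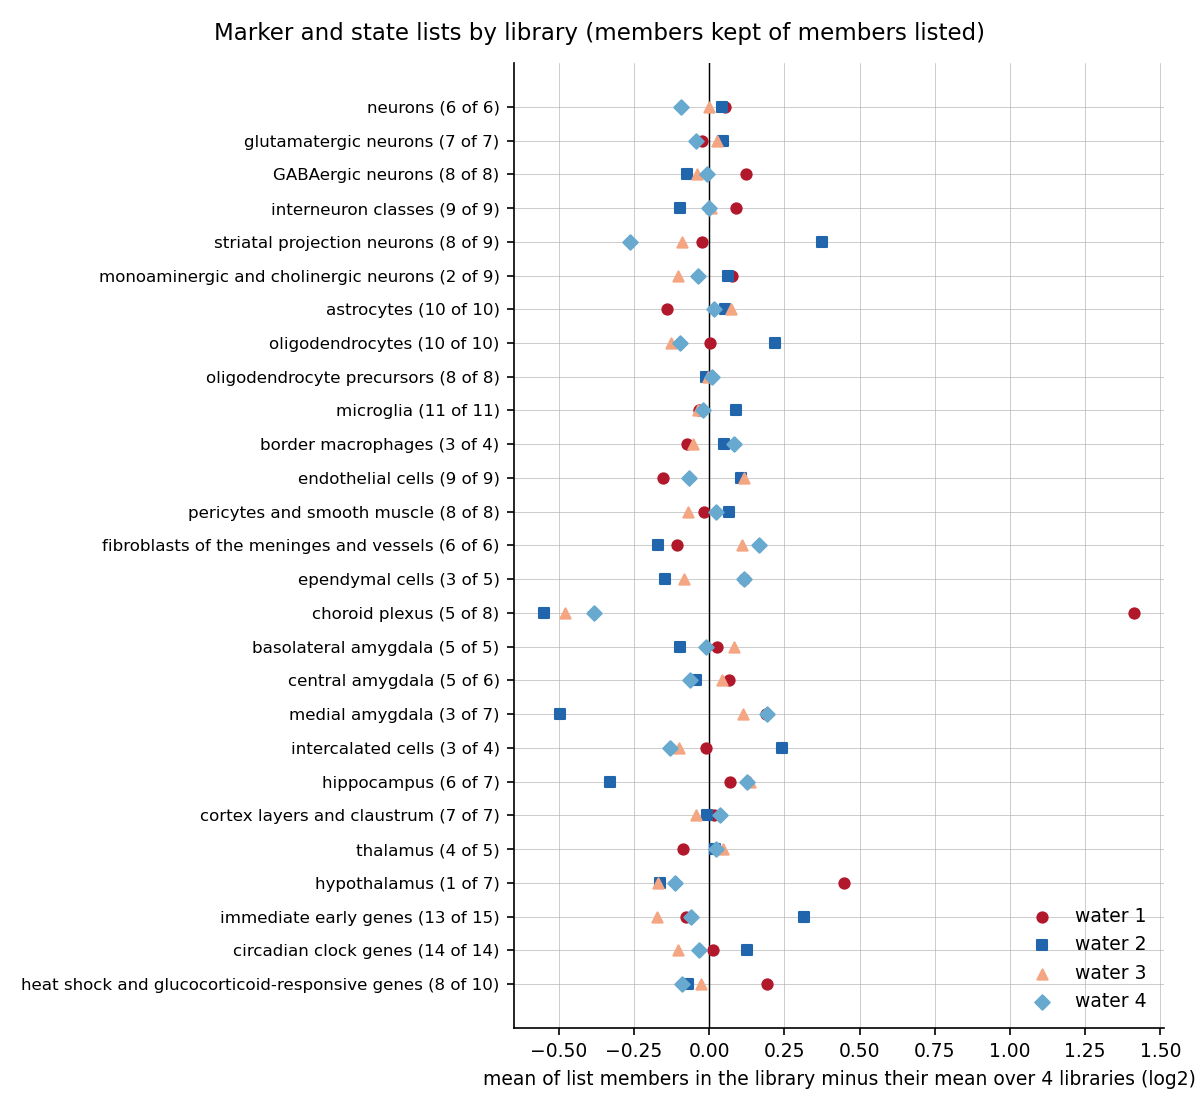
Mean of the members kept of each marker or state list in a library minus their mean over the 4 plain water libraries (horizontal axis, log2), with the number kept of the number listed. Most lists lie within 0.25 of 0, while choroid plexus markers reach 1.41 in water 1, striatal markers 0.38 and immediate early genes 0.31 in water 2, and medial amygdala markers -0.50 in water 2.

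Age is the one label that differs among the 4 libraries. Only 5 of 12857 genes were called between 189 d and 187 d at an adjusted p under 0.05 (limma, Benjamini-Hochberg), or 0.0389% of those tested (0.0311% higher and 0.00778% lower at 189 d), while 184 had an unadjusted p under 0.05. All 5 were sex-linked. *Xist*, the RNA that silences an X chromosome in female cells, lies on chromosome X from 103460366 to 103483254, and its rlog was 10.96, 5.67, 11.36 and 5.59 in water 1 to 4. It was lower at 189 d by a difference of -5.53 (SE 0.13, adjusted p = 3.99e-09, limma). The Y-linked genes were the mirror image.

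*Ddx3y*, an RNA helicase gene, had rlog of 5.01, 8.15, 5.12 and 8.10, a difference of 3.06 (SE 0.11, adjusted p = 1.75e-07, limma). *Kdm5d*, a histone demethylase gene, had 4.50, 7.02, 4.61 and 7.02, and *Uty*, a related gene, had 4.20, 6.22, 4.30 and 6.29. *Eif2s3y*, a translation factor gene, had 4.77, 6.76, 4.84 and 7.89. In all 4 genes water 1 and water 3 were below water 2 and water 4, with no overlap. Differences were 2.46 for *Kdm5d*, 2.01 for *Uty* and 2.52 for *Eif2s3y* (adjusted p = 0.00481, limma). *Eif2s3y* was not called without a filter (adjusted p = 0.173), with robust moderation (1.000) or without water 1 (1.000) or water 3 (0.443). The X-linked partners of these genes, chosen after their values were seen, were not called. *Eif2s3x* differed by -0.32 and *Kdm5c* by -0.24, lower at 189 d, with adjusted p of 1.000 each in limma.

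Age, the sex-linked pattern and any other difference between these pairs of mice cannot be told apart. The labels give all 4 mice as male, and low Y-linked genes with high *Xist* in water 1 and water 3 go against that label. The rlog of Y-linked genes in these libraries does not show that reads were present, since the transformation draws values toward each gene's mean. Without the genes of chromosomes X and Y, limma called 0 of 12384 genes, of which 168 had an unadjusted p under 0.05. With each library left out in turn the number called was 4 to 54, and the highest count was without water 4. An exact permutation test of 2 libraries against 2 allows no two-sided p under 0.333.

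**Figure D4:**
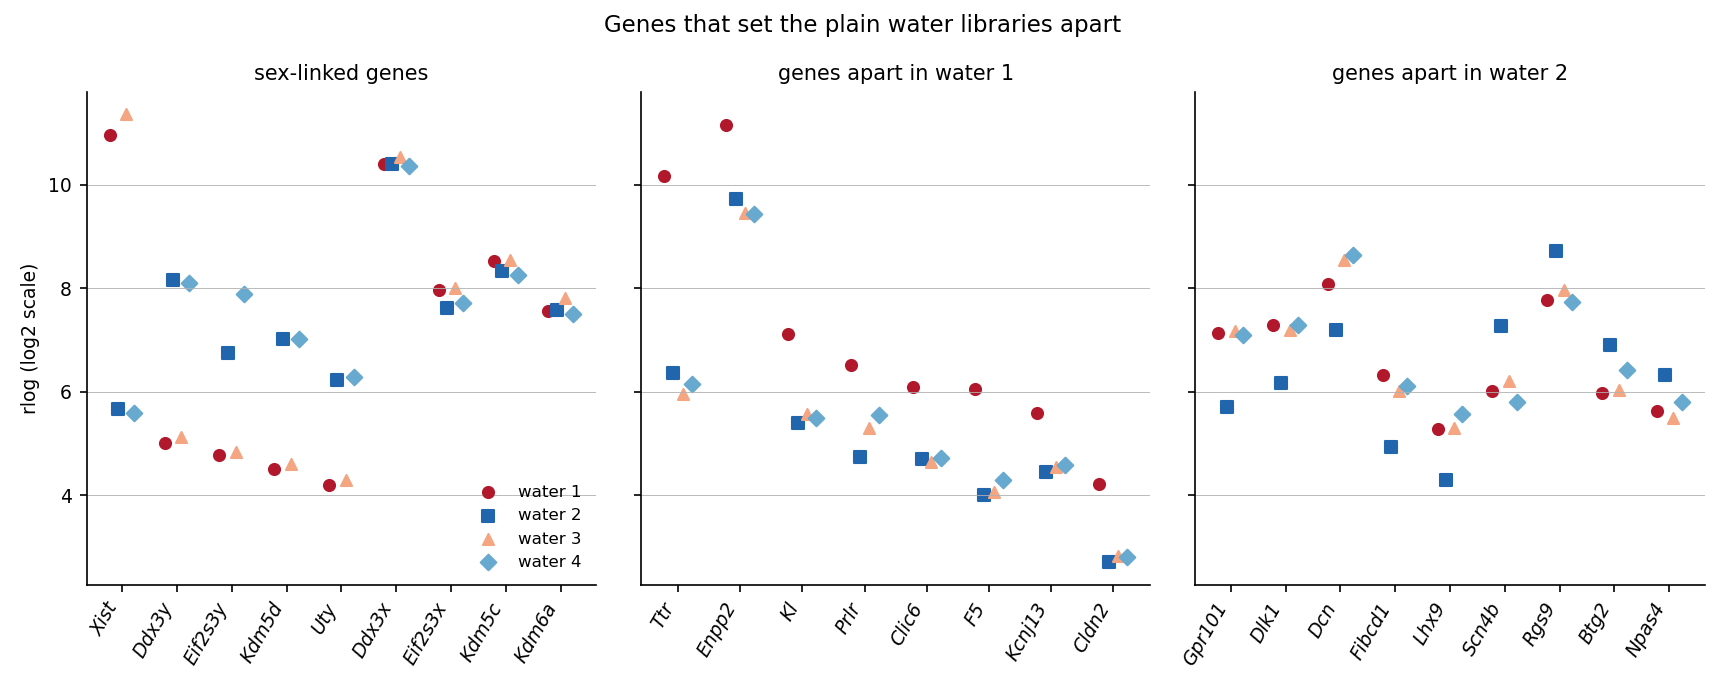
The rlog of genes that set libraries apart (vertical axis, log2 scale), as 1 point per plain water library. *Xist* is above 10 in water 1 and water 3 and the 4 Y-linked genes are below 5.2 there, *Ttr* is 10.16 in water 1 and at most 6.36 elsewhere, and *Gpr101*, *Dlk1*, *Fibcd1* and *Lhx9* are lowest in water 2.

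Genes of the choroid plexus set water 1 apart. *Ttr*, which encodes transthyretin, the thyroid hormone carrier that the choroid plexus secretes, had rlog of 10.16, 6.36, 5.96 and 6.15. *Kl*, which encodes klotho, had 7.12, 5.40, 5.57 and 5.50, and *Clic6* 6.09, 4.71, 4.63 and 4.71. *Kcnj13*, a potassium channel gene of that epithelium, had 5.58, 4.44, 4.55 and 4.59. Of the 8 listed markers 5 were kept, and all 5 were highest in water 1, against 34.1% of all kept genes. *Folr1*, *Aqp1* and *Otx2* were below the minimum, and their rlog was also highest in water 1, at 3.71, 2.07 and 3.53. The prolactin receptor gene *Prlr* had 6.51, 4.75, 5.30 and 5.54. The list mean was 1.41 above the mean of the 4 libraries in water 1, and -0.55, -0.48 and -0.38 in water 2 to 4.

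Further genes of the largest SD had the same shape. *Enpp2*, which makes lysophosphatidic acid, had rlog of 11.15, 9.73, 9.46 and 9.43. *F5*, coagulation factor V, had 6.05, 4.00, 4.07 and 4.29, and *Cldn2*, a pore-forming claudin, had 4.21, 2.70, 2.83 and 2.80. Water 1 was above the other libraries in each. *Cldn2* was below the minimum of 3 in the other libraries and was kept only through its value in water 1. Water 1 was also the library that led the first principal component, which held 51.8% of the variance, and 34.2% of all kept genes were lowest in it. Ependymal markers, of which 3 of 5 were kept, had list means of 0.12, -0.15, -0.085 and 0.12. Genes of high GC content were higher in water 1 than those of low GC content by 0.27, against -0.14 to -0.054 in the other libraries. The part of GC content and of the dissected tissue in these values was not tested.

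Water 2 differed from the others in regional markers. All 8 striatal markers kept were highest in water 2 and all 8 were lowest in water 4, with list means of -0.02, 0.38, -0.09 and -0.26 in water 1 to 4, where 24.6% of all kept genes were highest in water 2. *Rgs9*, a regulator of dopamine receptor signaling, had rlog of 7.78, 8.73, 7.97 and 7.73. *Ppp1r1b*, which encodes DARPP-32, had 8.67, 8.88, 8.25 and 8.12. The sodium channel gene *Scn4b* had 6.02, 7.27, 6.20 and 5.79. These 3 genes were highest in water 2, but for *Ppp1r1b* water 1 was close. The list of intercalated cells of the amygdala, which shares *Drd1* with the striatal list, had means of -0.012, 0.24, -0.10 and -0.13. Of its 3 members kept, 2 were highest in water 2. Oligodendrocyte markers were also higher in water 2, by a list mean of 0.22, with 8 of 10 highest there, among them *Mobp* at 10.46, 10.90, 10.42 and 10.40.

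In the same library, markers of the medial amygdala and hippocampus were low. The 3 medial markers kept were all lowest in water 2, against 24.7% of all kept genes, with a list mean of -0.50 there and 0.11 to 0.19 in the others. *Lhx9*, a transcription factor of medial amygdala neurons, had rlog of 5.28, 4.30, 5.30 and 5.56, and *Esr1* 5.36, 4.83, 5.61 and 5.37. *Fibcd1* had 6.32, 4.93, 6.02 and 6.10, and 4 of 6 hippocampal markers were lowest in water 2. *Gpr101*, an orphan receptor, had 7.14, 5.71, 7.17 and 7.09. *Dlk1*, an imprinted gene next to *Meg3* on chromosome 12, had 7.29, 6.16, 7.20 and 7.29. Water 2 was below the other libraries for all of these genes. Among the neuropeptide precursors, *Trh* (5.89, 4.99, 5.62 and 6.10) and *Grp* (4.70, 3.80, 4.65 and 4.81) were also lowest there. Low values in water 2 were not limited to these lists. Of the basolateral markers, *Rspo2* (5.85) and *Etv1* (8.28) were lowest there, while *Tbr1* (9.12) and *Mef2c* (11.02) were highest there and *Cyp26b1* was neither. The part of the dissected region in these values was not tested.

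Immediate early genes, which are switched on within minutes of neuronal activity, were higher in water 2 as well. Of 15 listed, 13 were kept and 11 of these were highest in water 2, against 24.6% of all kept genes. The list mean was 0.31 there and -0.18 to -0.061 in the others. The remaining kept members were highest in water 3 and lay below their own mean in water 2. *Btg2* had rlog of 5.98, 6.90, 6.02 and 6.42. *Npas4*, a transcription factor specific to neurons, had 5.63, 6.33, 5.50 and 5.80. *Nr4a1*, a nuclear receptor, had 6.73, 7.25, 6.48 and 6.72, and *Egr1* 8.97, 9.32, 8.57 and 8.76. The order of the other 3 libraries differed from gene to gene. Clock genes differed less, with list means from -0.10 in water 3 to 0.12 in water 2. Of the 14 kept, 9 were highest in water 2, against 24.6% of all kept genes, and 8 were lowest in water 3, against 25.3%. *Nr1d1*, a repressor of the clock, had 7.55, 7.42, 7.03 and 7.42. The heat shock and glucocorticoid-responsive list was highest in water 1, at 0.19, with *Sgk1* at 8.19, 7.72, 7.74 and 7.50 and *Zbtb16* at 7.98, 7.26, 7.56 and 7.76.

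The start regions of the 3 immediate early genes of largest SD are shown. All 3 were highest in water 2 and hold the core of the CRE, TGACG, which the factor CREB recognizes. Windows of the other immediate early genes were not examined singly, so how many of those highest in water 2 hold the core is not known. Windows are as for *Sst*, from RefSeq on GRCm38.p6, with the core on either strand and the full element in capitals. That of *Npas4* lies at chr19:4989922-4990221 on the minus strand, that of *Btg2* at chr1:134079106-134079405 on the minus strand, and that of *Nr4a1* at chr15:101266596-101266895 on the plus strand.
Npas4: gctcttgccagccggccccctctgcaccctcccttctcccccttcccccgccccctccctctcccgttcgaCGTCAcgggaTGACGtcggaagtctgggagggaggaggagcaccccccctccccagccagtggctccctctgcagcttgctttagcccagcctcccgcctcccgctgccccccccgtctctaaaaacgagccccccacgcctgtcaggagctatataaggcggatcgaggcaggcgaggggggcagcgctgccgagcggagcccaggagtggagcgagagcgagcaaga
Btg2: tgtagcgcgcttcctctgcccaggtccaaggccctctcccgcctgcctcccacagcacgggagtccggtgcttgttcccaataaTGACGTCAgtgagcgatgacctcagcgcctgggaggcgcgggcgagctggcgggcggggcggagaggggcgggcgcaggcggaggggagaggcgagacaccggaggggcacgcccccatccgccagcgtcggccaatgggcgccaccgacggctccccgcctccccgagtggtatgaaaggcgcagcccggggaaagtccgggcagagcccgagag
Nr4a1: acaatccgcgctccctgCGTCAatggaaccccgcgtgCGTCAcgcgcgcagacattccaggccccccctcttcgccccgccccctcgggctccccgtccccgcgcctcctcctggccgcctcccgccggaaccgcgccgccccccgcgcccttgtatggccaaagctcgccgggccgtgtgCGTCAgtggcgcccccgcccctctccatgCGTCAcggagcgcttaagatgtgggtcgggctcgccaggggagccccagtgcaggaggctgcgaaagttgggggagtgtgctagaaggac
Only *Btg2* holds the full element, with its first base 166 bases before the start. *Nr4a1* holds the core at 4 places and *Npas4* at 2, and 20.8% of all RefSeq windows and 30.3% of those of kept genes hold it at least once. The core lies within the full element, so that both are counted where the latter occurs. The exact letters TATAAA, searched for in the same windows, were in none of the 3, against 13.6% of all windows and 7.13% of those of kept genes. Other forms of the TATA box were not searched for, and the window of *Npas4* holds the letters tatataa.

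Beyond these genes the libraries were close. The median SD over 4 libraries was 0.095, the 95th percentile 0.21 and the 99th 0.31. An SD over 0.5 was found for 25 genes and over 1 for 6, which fell to 18 and 1 without the genes of chromosomes X and Y. The one that remained was *Ttr*. The median SD was 0.098 for genes with a mean of 3 to 5, 0.10 from 5 to 7, 0.090 from 7 to 9, and 0.089 from 11 up. The second principal component, led by water 2, held 30.3% of the variance. *Dcn*, a proteoglycan gene of fibroblasts, had rlog of 8.08, 7.20, 8.54 and 8.65 and *Baiap3*, which acts in dense-core vesicle traffic, 6.94, 5.63, 6.03 and 6.35. Without water 2, 16 genes had an SD over 0.5, and in water 2 and water 4 alone 45 genes did. An SD over fewer libraries is less certain, so that these counts and the 25 over 4 libraries cannot be compared directly.

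**Figure D5:**
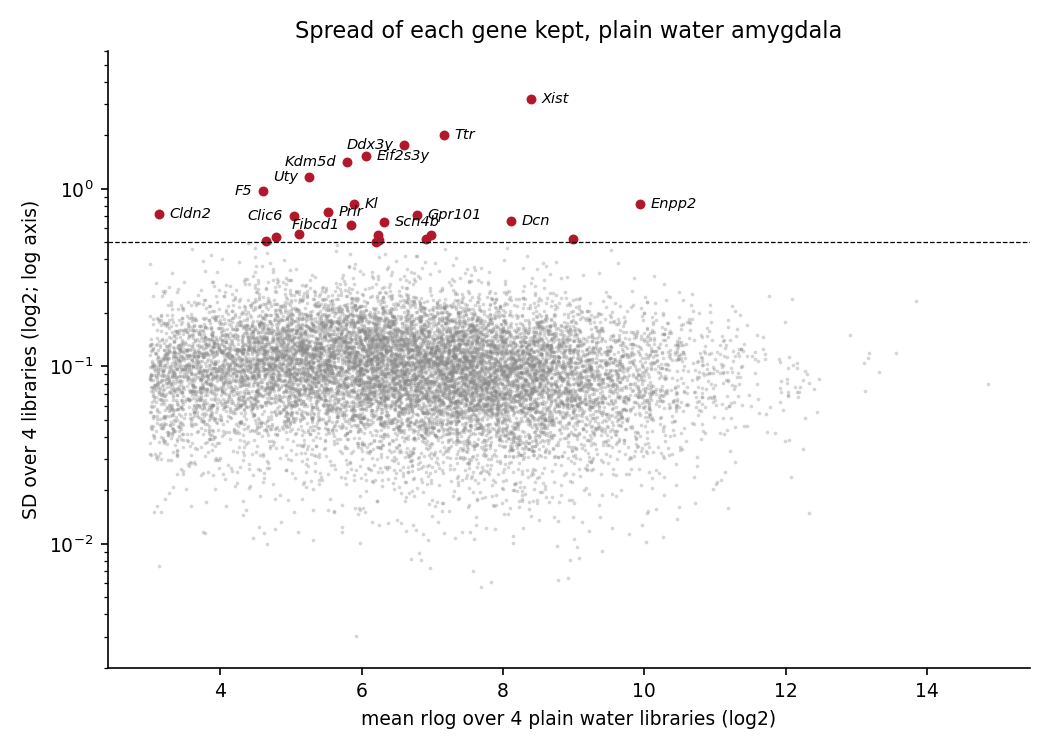
SD over the 4 plain water libraries (vertical axis, log scale) against mean rlog (horizontal axis, log2) for each of 12857 genes, with the 25 genes over an SD of 0.5 (dashed line) in red. *Xist*, *Ttr* and the Y-linked genes stand above an SD of 1, and most genes lie near 0.095.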

How the data were processed

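Amygdala RNA was sequenced by the authors from poly(A)-selected stranded libraries as paired reads, aligned with STAR to mm10, quantified per gene with Salmon and transformed with DESeq2. The deposited values are on a log2 scale and are taken as rlog from the table's name. How many libraries entered the transformation and its options are not given in the sources used here. Counts and depth were not analysed here, and depth is unknown. The 4 plain water columns were used, and genes with varying values and a mean of at least 3 were kept.

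Transcript lengths came from GENCODE M21 (GRCm38). The length-scaled level is rlog minus log2 of the representative transcript's length in kb, for 12804 of the 12857 genes. Alternatives took the longest or median transcript, the union of exons, or no scaling. Ages were compared across all kept genes in limma 3.58.1 (R 4.3.3), whose moderated variance followed mean expression, with the Benjamini-Hochberg adjustment. This script was first tested on data with known answers. Each library is a separate animal. Start regions came from RefSeq windows on GRCm38.p6, and 10109 of the kept genes had one. Other values were computed in Python 3.11.15 with numpy 2.4.6 and pandas 2.3.3.

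Named genes were the first 20 by rlog and by length-scaled level, the leading and second members of each family and further members in order, up to 4 members of each marker list by level and of each state list by SD, the 20 of largest SD, and genes called by age. Members of lists below the minimum were named to say what was absent. Genes and lists were chosen with earlier results of these data known. Aspartame libraries were left out, and some named members are not reported here.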

Additional observations from a re-analysis of the deposited data

Results flagged for a closer look

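For each gene named in the text the library farthest from the other 3 was compared with Dixon's limit for 4 samples, which sets its gap to the nearest of them against the whole range. About 1 in 20 groups passes this limit by chance, and 5.55% of all kept genes did. Of the 231 named genes, some of which were named for their spread, 26 passed, and 5 of 28 lists did. All values are rlog.

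Water 1 stood high for 12 of these genes and 2 lists. Choroid plexus markers were among them, with *Ttr* at 10.16 against at most 6.36 in the others and *Kl* at 7.12 against at most 5.57. *Clic6* was at 6.09 against at most 4.71 and *Kcnj13* at 5.58 against at most 4.59. Also high, but not on the choroid plexus list, were *Enpp2* (11.15 against at most 9.73), *F5* (6.05 against 4.29) and *Cldn2* (4.21 against 2.83). These were named for their spread, and *Cldn2* reached the minimum of 3 only through water 1. The mean of the choroid plexus list was 1.41 against at most -0.38, and that of the hypothalamus list, which rests on *Pmch* alone (3.93 against at most 3.37), was 0.45 against at most -0.12. Water 1 was also high for *Grin1* (10.001 against at most 9.82), *Slc32a1* (6.32 against 5.93), *Adra2a* (6.64 against 6.49) and *Crhr1* (4.94 against 4.77). It was low for *Gabra4* (8.53 against at least 8.75), *Ntrk2* (11.65 against 11.75) and *Pgr* (6.62 against 6.84).

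Water 2 stood low for *Gpr101* (5.71 against at least 7.09), *Dlk1* (6.16 against 7.20), *Gria1* (10.98 against 11.34), *Grp* (3.80 against 4.65) and *Chrm5* (2.71 against 3.07). The list means of the medial amygdala (-0.50 against at least 0.11) and the hippocampus (-0.33 against 0.070) were low there too. Water 2 stood high for *Drd1* (7.21 against at most 6.66), *Mobp* (10.90 against 10.46), *Glul* (12.37 against 12.21) and *Slc2a13* (8.95 against 8.82), and for the mean of the microglia list (0.090 against at most -0.019). Water 3 was high for *Atp1b1* (12.11 against at most 12.06), and water 4 was low for *Pdyn* (5.18 against at least 5.56).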

How the results depend on the processing

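The leads of 77 families were kept in 72 with the longest transcript, 63 with the union of exons, 58 with median lengths, 60 with no length scaling, 75 to 77 with a library left out, and 75 without water 1 and water 3. A negative lead means that another member led, and the leads listed are those that held in every library and whose leading and second members are both reported. With the longest transcript, the lead was -0.075 for *P2rx4*, -0.37 for *Kcnc1*, -0.42 for *Kcnma1* and -1.18 for *Slc8a1*. With the union of exons it was -0.091 for *Grin1*, -0.65 for *P2rx4*, -0.16 for *Kcnc1*, -0.39 for *Kcnma1*, -1.21 for *Slc8a1*, -0.29 for *Slc29a1* and -0.048 for *Atp2b1*. With median lengths it was -3.89 for *Grin1*, -0.31 for *Adra2a*, -1.47 for *Chrnb2*, -0.50 for *Scn2a*, -0.28 for *Kcna1*, -0.77 for *Trpc5*, -1.19 for *Chgb*, -0.39 for *Slc7a14* and -1.27 for *Slc4a10*. With no length scaling it was -0.69 for *Grik5*, -1.45 for *Grin1*, -0.42 for *P2rx4*, -0.10 for *Sstr1*, -0.49 for *Cacnb3*, -0.75 for *Kcna1*, -0.16 for *Clcn4*, -0.11 for *Slc9a7* and -0.83 for *Slc29a1*. Some pairs not ordered in every library also turned, among them *Gria1*, which had -1.22 with median lengths and -0.63 with no length scaling, *Kcnh1* (-0.78) and *Kcnj10* (-0.52) with median lengths, and *Slc38a1* (-0.29) with the union of exons. These leads differ by the transcript length taken, by construction.

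Of the first 20 genes by length-scaled level, 9 were shared with median lengths and 11 with no length scaling. Leaving out 1 library gave 4 to 54 genes called by age in limma, where the lone library was assumed to vary like the others, and without genes of chromosomes X and Y it was 0. Genes with an SD over 0.5 numbered 16 to 36 with a library left out and 45 without water 1 and water 3, against 25 in all. These counts rest on different numbers of libraries and cannot be compared directly, since an SD over fewer libraries is less certain. The alternatives without water 1 and water 3, and without genes of chromosomes X and Y, were chosen after seeing the data. The cause was not tested. No paired analysis was possible because the age groups share no replicate number. With 4 libraries, unknown depth and values drawn toward the mean, differences of low genes are the least certain.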
